A study of Mus musculus with 6 samples.

Results

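The 10 genes described here encode the MHC class II antigen presentation pathway and its dedicated transcription factors: H2-Aa, H2-Ab1, H2-Eb1, Cd74, H2-DMa, H2-DMb1, Ciita, Rfx5, Rfxap and Rfxank. They were chosen by name, as the rows of the count tables whose Ensembl identifiers carry these symbols in GENCODE M21, and are 10 of the 55335 genes counted. RNA was sequenced from B16-BL6, a mouse melanoma line, in 3 scrambled control cultures and 3 IFNγR1KO cultures. Both groups had been transduced with a lentivirus carrying Cas9 and a guide RNA. The guide was directed at GFP in the scrambled control, whose genotype label is WT, and at Ifngr1, the ligand-binding chain of the IFN-γ receptor, in IFNγR1KO cells. Neither the labels nor the methods name any IFN-γ added to the cultures for sequencing. In the methods, transduced cells were selected with puromycin, and single IFNγR1KO clones were screened by their PD-L1 level after IFN-γ. The sequenced knockout clone and its guide are not named, so the effect of the knockout and that of a single clone cannot be told apart. Replicates were cultures plated side by side, numbered 1 to 3 for the scrambled control and 10 to 12 for IFNγR1KO, and p-values measure only the spread between these cultures.

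MHC class II molecules are surface heterodimers that present peptides from endosomes to CD4+ T cells. The invariant chain holds the groove closed on the way to the endosome, and H2-DM exchanges its remnant for peptide. Transcription of these genes rests on the RFX complex, NF-Y and CREB, which are bound to the promoter in many cell types, and on the co-activator CIITA, whose presence decides whether class II is expressed. CIITA is made constitutively by professional antigen-presenting cells and is induced by IFN-γ in most others, through the JAK kinases and IRF1.

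The scrambled control libraries held 9402640 to 10579788 counts on genes and the IFNγR1KO libraries 6698956 to 7409479, so that 1 count stood for 0.0966 to 0.109 CPM (counts per 1e6 scaled library counts) in the former and 0.135 to 0.142 CPM in the latter. Of 13642 genes that passed the filter on low counts, 2093 had an adjusted p under 0.05 in edgeR's quasi-likelihood test, 1054 higher and 1039 lower in IFNγR1KO cells. All 8 melanocyte markers listed passed the filter and their summed level was 32942 to 35876 CPM in scrambled control and 28795 to 33685 CPM in IFNγR1KO libraries. With edgeR 0 of them were called (2 had an unadjusted p under 0.05, and DESeq2 called 1). Ifngr1, the targeted gene, had 154, 144 and 172 counts in scrambled control and 80, 85 and 82 counts in IFNγR1KO libraries, with no overlap after scaling for depth, but the difference of -0.47 on the log2 scale did not pass the test (edgeR adjusted p = 0.0729). Gene counts do not show the edit itself.

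The 3 genes for the class II chains themselves were low in scrambled control cells and close to 0 counts in IFNγR1KO cells, while the RFX subunit gene Rfx5 was higher in IFNγR1KO cells. The peptide exchange genes H2-DMa and H2-DMb1 and the other RFX subunit genes Rfxap and Rfxank did not pass the test. In all, 8 of the 10 genes passed the filter on low counts and 3 were called at an adjusted p under 0.05 (H2-Aa and H2-Ab1 lower, Rfx5 higher), beside 15.3% of all genes tested that were called, 7.73% higher and 7.62% lower. H2-Aa and H2-Ab1 reached the filter only through the scrambled control libraries and therefore had to differ, so the count is a description. Libraries of one group all lay above those of the other for 4 of the 8 genes tested, and 32.6% of all genes tested were separated in this way.

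**Figure D1:**
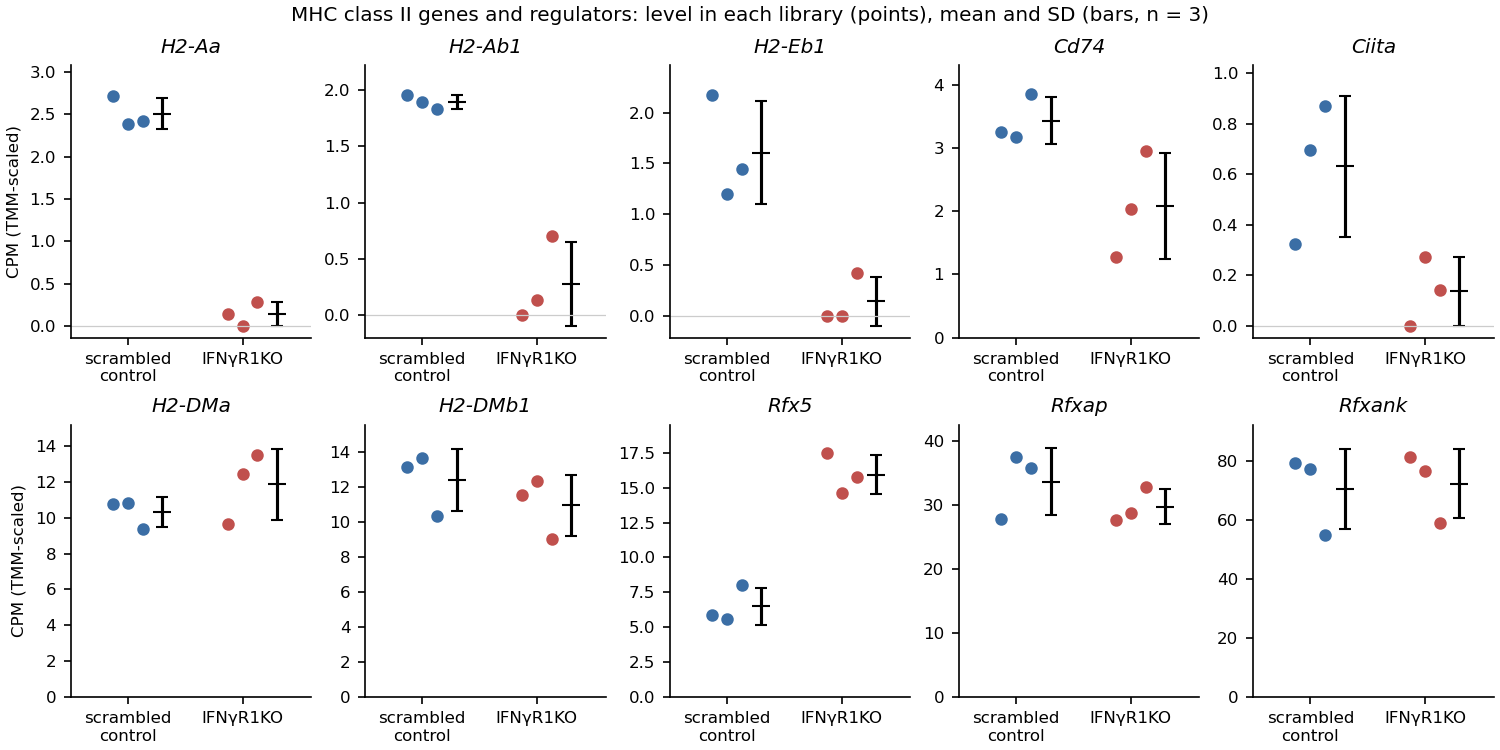
Level of each of the 10 genes in CPM on a linear axis, with a point for each of the 3 scrambled control (blue) and 3 IFNγR1KO (red) libraries and bars for the mean and SD. The points of H2-Aa, H2-Ab1, H2-Eb1, Cd74 and Ciita lie lower in every IFNγR1KO library than in any scrambled control library, and those of Rfx5 lie higher.

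H2-Aa (ENSMUSG00000036594.15), which encodes the alpha chain of the I-A molecule, lies on the minus strand of chromosome 17 from 34282744 to 34287823 in GRCm38. It had 25, 24 and 25 counts in scrambled control and 1, 0 and 2 counts in IFNγR1KO libraries, or 2.51 ± 0.181 and 0.141 ± 0.141 CPM (SD, n = 3 each). Every IFNγR1KO library was far below every scrambled control library. H2-Aa fell by 4.03 on the log2 scale (SE 0.57, 95% interval -5.26 to -2.80, edgeR adjusted p = 0.000705). From the summed counts the scrambled control level was 17.9 times the IFNγR1KO level, with an exact interval of 5.90 to 89.0 that covers counting error only. In the 11 other fits the adjusted p ranged from 1.2e-08 to 0.00775 and the difference from -4.91, without IFNγR1KO replicate 12, to -3.46, without IFNγR1KO replicate 11. Where a filter on low counts was used, H2-Aa reached it only through the scrambled control libraries, so these p-values are a description.

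H2-Ab1 (ENSMUSG00000073421.6) encodes the beta chain that pairs with the product of H2-Aa, and lies on the plus strand of chromosome 17 from 34257689 to 34269419. It had 18, 19 and 19 counts in scrambled control libraries and 0, 1 and 5 counts in IFNγR1KO libraries, or 1.89 ± 0.0590 and 0.279 ± 0.373 CPM (SD, n = 3 each). The groups did not overlap, and IFNγR1KO replicate 12 carried 5 of the 6 IFNγR1KO counts. H2-Ab1 fell by 2.70 on the log2 scale (SE 0.61, 95% interval -4.03 to -1.37, edgeR adjusted p = 0.0110). The scrambled control level from summed counts was 6.79 times the IFNγR1KO level (exact interval 2.93 to 19.3, counting error only). The call was lost without scrambled control replicate 2 (adjusted p = 0.0524) and without IFNγR1KO replicate 11 (adjusted p = 0.0684), and without IFNγR1KO replicate 12 the difference was -4.52 (adjusted p = 0.00044). Over the 11 other fits the adjusted p ranged from 0.00014 to 0.0684. H2-Ab1 too could reach a filter on low counts only through the scrambled control libraries, so its p-values are a description.

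H2-Eb1 (ENSMUSG00000060586.11), on the plus strand of chromosome 17 from 34305867 to 34316674, encodes the beta chain of the I-E molecule. It had 20, 12 and 15 counts in scrambled control and 0, 0 and 3 counts in IFNγR1KO libraries, or 1.605 ± 0.507 and 0.141 ± 0.243 CPM (SD, n = 3 each). Every IFNγR1KO library was below every scrambled control library. H2-Eb1 did not pass the filter and has no value in the main fit. The scrambled control level was 11.4 times the IFNγR1KO level (exact interval 3.67 to 57.2, counting error only), and the exact two-sided permutation test over the 6 libraries gave p = 0.1, the smallest that 3 against 3 allows. In the 7 other fits with an adjusted p for this gene it ranged from 8.2e-05 to 0.0547. Where a filter on low counts was used, H2-Eb1 too could reach it only through the scrambled control libraries and had to differ, so these values are a description. Without IFNγR1KO replicate 11 the log2 ratio of summed counts was -2.90, against -3.51 with all libraries, and without IFNγR1KO replicate 12 the IFNγR1KO group held 0 counts of H2-Eb1. H2-Ea-ps, the I-E alpha chain pseudogene, had 0 counts in every library.

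Summed over the 3 chain genes, scrambled control libraries held 63, 55 and 59 counts and IFNγR1KO libraries 1, 1 and 10. IFNγR1KO replicate 12 thus held 10 of the 12 counts in its group, against 177 in the scrambled control group. In bulk RNA, fewer cells that express a gene and less RNA per cell cannot be told apart. The listed markers of antigen-presenting cells, which express class II constitutively, were read in the same libraries: 9 of 16, among them Adgre1, Flt3, Itgam, Itgax and Xcr1, had 0 counts in every library and 12 of 16 had at most 3. Their summed level was 17.2 to 18.1 CPM in scrambled control and 13.2 to 15.7 CPM in IFNγR1KO libraries, and came mainly from Csf1r and Lyz2. The 4 markers tested had a median difference of -0.34 on the log2 scale, 3 of them with values below 0. Spi1, a myeloid transcription factor, averaged 2.77 ± 0.582 CPM over the scrambled control libraries and 1.76 ± 0.313 CPM over the IFNγR1KO libraries (SD, n = 3 each) without overlap, a difference of -0.65 that did not pass the test (edgeR adjusted p = 0.200). Lyz2, a macrophage lysozyme, differed by -0.60 with overlapping groups (edgeR adjusted p = 0.154), Csf1r by -0.08 (adjusted p = 0.861) and Fcer1g by 0.36 (adjusted p = 0.689). With edgeR 4 of the 16 were tested and 0 called, with 1 at an unadjusted p under 0.05, and DESeq2 called 0. All 5 T cell markers had 0 counts throughout. The part of such cells in the class II difference was not tested.

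Class II promoters are known for an X box, bound by RFX, and a Y box, bound by NF-Y, a short distance upstream of the start. RefSeq promoter windows (250 bases before to 50 after the start, build GRCm38.p6) were held for 6 of the 10 genes, H2-Aa, H2-Eb1, H2-DMa, H2-DMb1, Rfx5 and Rfxank, and not for H2-Ab1, Cd74, Ciita and Rfxap. Capitals mark GCAAC, the X box core, and ATTGG, the Y box core, searched on both strands (ATTGG reads CCAAT on the other). The windows of 2 chain genes whose counts were near 0 in IFNγR1KO cells are shown with those of H2-DMb1, which did not pass the test, and Rfx5, which rose. They are H2-Aa at chr17:34287774-34288073 (minus strand), H2-Eb1 at chr17:34305617-34305916 (plus), H2-DMb1 at chr17:34152941-34153240 (plus) and Rfx5 at chr3:94953858-94954157 (plus).
H2-Aa: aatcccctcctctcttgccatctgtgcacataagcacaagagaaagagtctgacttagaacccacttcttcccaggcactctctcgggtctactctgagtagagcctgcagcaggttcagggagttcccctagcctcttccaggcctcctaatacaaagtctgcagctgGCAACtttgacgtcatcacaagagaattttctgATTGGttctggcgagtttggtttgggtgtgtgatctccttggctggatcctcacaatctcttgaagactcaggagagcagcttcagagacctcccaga
H2-Eb1: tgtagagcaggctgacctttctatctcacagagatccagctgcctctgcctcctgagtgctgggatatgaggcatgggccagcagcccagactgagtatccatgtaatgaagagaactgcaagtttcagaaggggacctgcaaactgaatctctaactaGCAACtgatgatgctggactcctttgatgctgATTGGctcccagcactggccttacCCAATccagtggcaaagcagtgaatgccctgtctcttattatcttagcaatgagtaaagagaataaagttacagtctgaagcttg
H2-DMb1: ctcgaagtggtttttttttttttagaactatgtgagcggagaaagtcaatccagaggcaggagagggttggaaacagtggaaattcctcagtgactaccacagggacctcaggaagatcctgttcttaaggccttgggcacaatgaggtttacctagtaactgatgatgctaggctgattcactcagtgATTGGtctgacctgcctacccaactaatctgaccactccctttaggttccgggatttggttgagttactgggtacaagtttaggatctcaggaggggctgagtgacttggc
Rfx5: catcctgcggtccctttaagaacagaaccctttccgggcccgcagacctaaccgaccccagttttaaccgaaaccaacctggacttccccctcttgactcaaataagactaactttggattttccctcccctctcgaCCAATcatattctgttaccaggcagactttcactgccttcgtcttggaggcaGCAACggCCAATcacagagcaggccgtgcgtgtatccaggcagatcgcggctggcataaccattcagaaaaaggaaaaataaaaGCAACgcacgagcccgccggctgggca

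In the H2-Aa window GCAAC began 81 bases before the start and ATTGG 48 bases before it, a spacing of 33 bases. In the H2-Eb1 window they began 91 and 59 bases before the start, a spacing of 32 bases, and CCAAT stood 35 bases before the start. Among 32851 windows, 35.2% held GCAAC and 37.4% held ATTGG on some strand, and 0.794% held GCAAC followed on the same strand by ATTGG at 25 to 40 bases from start to start, a range set after the spacings were seen. The class II genes H2-Oa, H2-Ob and H2-Eb2 also held such a pair, at spacings of 33, 30 and 32 bases. H2-DMb2 held ATTGG alone. The windows of H2-DMa, H2-DMb1, Rfx5 and Rfxank held no such pair by exact match of these letters. H2-DMb1 held ATTGG 61 bases before the start but not those 5 letters of the X box, and shared with H2-Eb1 the 13 bases AACTGATGATGCT, starting 92 and 89 bases before their starts, a run found in 3 of all windows. Directly before that run H2-Eb1 read GC and H2-DMb1 read GT, so H2-DMb1 held GTAAC in place of GCAAC. In the Rfx5 window GCAAC stood 61 bases before the start and again 23 bases after it, and CCAAT stood 113 and 54 bases before the start. These are matches of letters and not sites of binding.

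**Figure D2:**
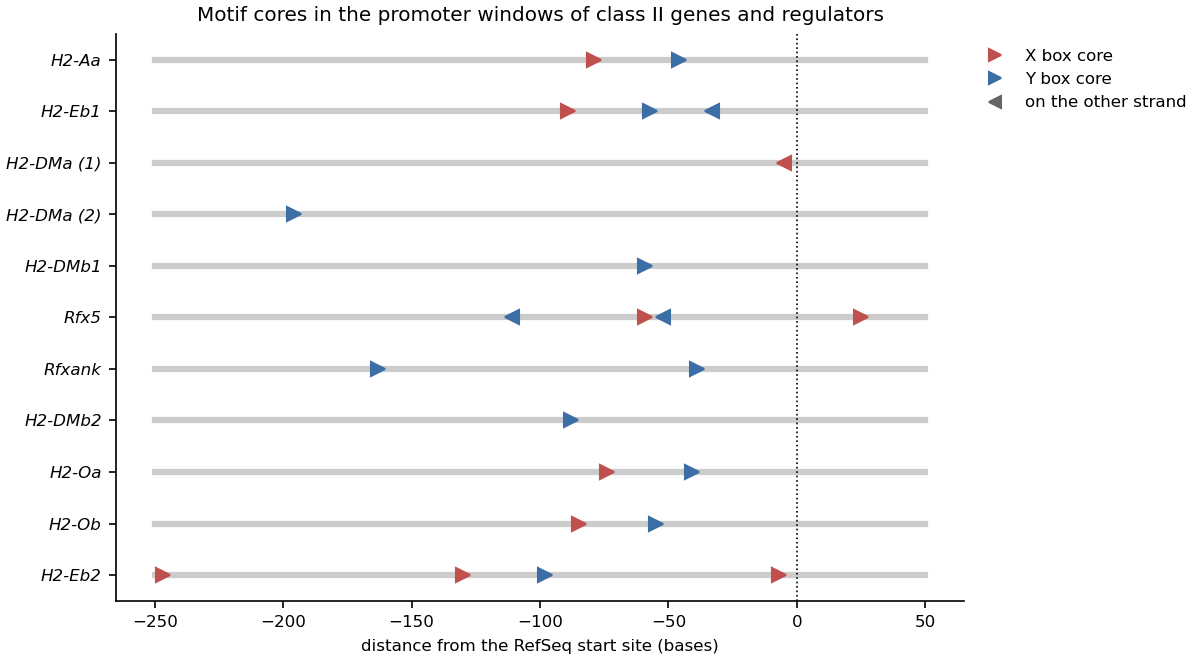
Position of the X box core (red) and Y box core (blue) letters in the RefSeq promoter windows of the class II genes and RFX genes, as distance in bases from the start of the gene. The windows of H2-Aa and H2-Eb1 hold a pair of X and Y box cores 33 and 32 bases apart. Those of H2-DMb1, Rfx5 and Rfxank hold no such pair by exact match of letters.

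Cd74 (ENSMUSG00000024610.15) encodes the invariant chain. It had 30, 32 and 40 counts in scrambled control and 9, 15 and 21 counts in IFNγR1KO libraries, or 3.44 ± 0.374 and 2.09 ± 0.838 CPM (SD, n = 3 each). The groups did not overlap, the lowest scrambled control library standing at 3.18 CPM and the highest IFNγR1KO library at 2.95 CPM. The difference of -0.72 on the log2 scale (SE 0.32, 95% interval -1.41 to -0.02) did not pass the test (edgeR adjusted p = 0.163), and its adjusted p lay between 0.0525 and 0.491 in the 11 other fits. The count of H2-Aa per count of Cd74 was 0.833, 0.750 and 0.625 in scrambled control and 0.111, 0 and 0.0952 in IFNγR1KO libraries. These ratios did not overlap (exact permutation p = 0.1, adjusted p = 0.133 over the 4 ratios compared, the smallest possible p being 0.1). H2-Aa reached the filter only through the scrambled control libraries, so this ratio had to differ and is a description.

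H2-DMa (ENSMUSG00000037649.10) and H2-DMb1 (ENSMUSG00000079547.4) encode the chains of the peptide exchange factor H2-DM and lie on the plus strand of chromosome 17, from 34119541 to 34139101 and from 34153072 to 34160230. H2-DMa had 99, 109 and 97 counts in scrambled control and 68, 92 and 96 counts in IFNγR1KO libraries, or 10.3 ± 0.823 and 11.9 ± 1.98 CPM (SD, n = 3 each). H2-DMb1 had 121, 137 and 107 counts in scrambled control and 81, 91 and 64 counts in IFNγR1KO libraries, or 12.4 ± 1.77 and 10.9 ± 1.74 CPM. The groups overlapped for both genes. The difference was 0.20 for H2-DMa (95% interval -0.20 to 0.61, edgeR adjusted p = 0.531) and -0.17 for H2-DMb1 (95% interval -0.59 to 0.25, edgeR adjusted p = 0.610) on the log2 scale, so that a change of either gene by more than 0.61 in either direction lay outside these intervals. The ratio of H2-DMa to H2-DMb1 counts was 0.818, 0.796 and 0.907 in scrambled control and 0.840, 1.01 and 1.5 in IFNγR1KO libraries, and overlapped (exact permutation p = 0.2, adjusted p = 0.2). Exons of Brd2 on the opposite strand overlap 10.4% of the exonic bases of H2-DMa, and Brd2 differed by 0.18 (edgeR adjusted p = 0.448). The H2-DMb1 value is uncertain, since 22.7% of its 50-base stretches are shared with the paralog H2-DMb2, which was counted at 0 in every library.

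**Figure D3:**
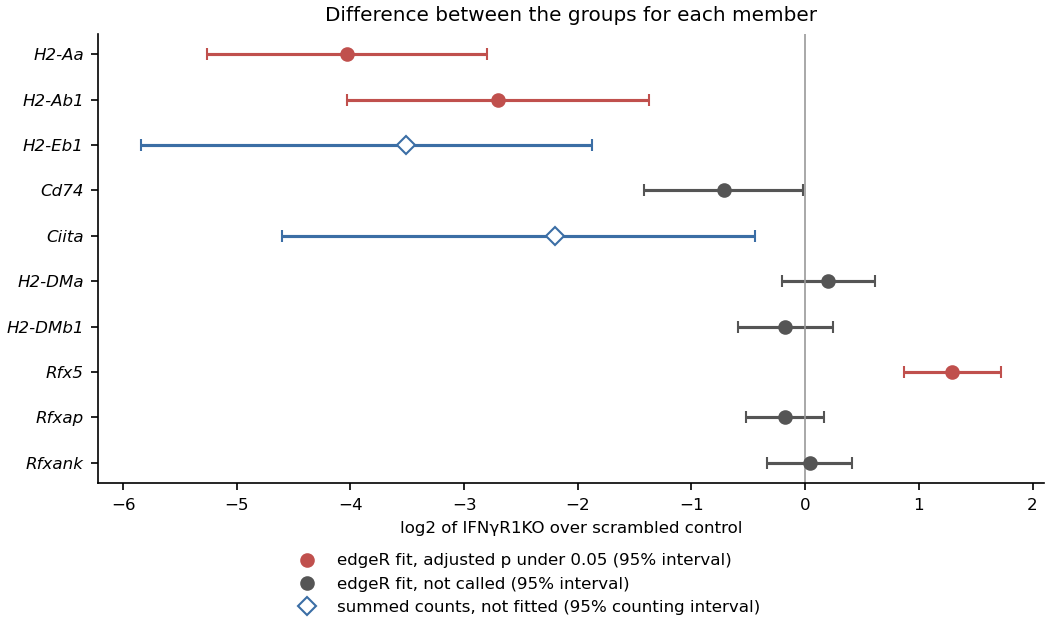
Log2 fold change of IFNγR1KO over scrambled control for each gene with its 95% interval, from edgeR for the 8 genes tested and from summed counts for H2-Eb1 and Ciita. Intervals from summed counts cover counting error only and not the spread between cultures. The intervals of H2-Aa, H2-Ab1, H2-Eb1 and Ciita lie below 0, that of Rfx5 above 0, and those of H2-DMa, H2-DMb1, Rfxap and Rfxank include 0, while that of Cd74 ends at -0.02 without an adjusted p under 0.05.

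Ciita (ENSMUSG00000022504.10), on the plus strand of chromosome 16 from 10480059 to 10528418, encodes the class II transactivator. It had 3, 7 and 9 counts in scrambled control and 0, 2 and 1 counts in IFNγR1KO libraries, or 0.631 ± 0.278 and 0.137 ± 0.136 CPM (SD, n = 3 each). Every IFNγR1KO library was below every scrambled control library, the nearest being 3 counts in scrambled control replicate 1 and 2 counts in IFNγR1KO replicate 11. The scrambled control level was 4.61 times the IFNγR1KO level with an exact interval of 1.36 to 24.3 (counting error only), a log2 ratio of -2.20 that became -3.18 without IFNγR1KO replicate 11. Without scrambled control replicate 3 or without IFNγR1KO replicate 10 the interval included no difference. The exact permutation test gave p = 0.1, the smallest possible. Ciita did not pass the filter. Without a filter edgeR gave an adjusted p of 0.152, the only other fit with an adjusted value for it. Exons of Dexi on the opposite strand overlap 3.45% of the exonic bases of Ciita, and Dexi differed by -0.46 (edgeR adjusted p = 0.204).

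Rfx5 (ENSMUSG00000005774.12) encodes the DNA-binding subunit of the RFX complex and lies on the plus strand of chromosome 3 from 94954075 to 94961561. It had 54, 56 and 83 counts in scrambled control and 123, 108 and 112 counts in IFNγR1KO libraries, although the latter were shallower, or 6.48 ± 1.34 and 15.95 ± 1.43 CPM (SD, n = 3 each). Every IFNγR1KO library was above every scrambled control library. Rfx5 rose by 1.29 on the log2 scale (SE 0.20, edgeR adjusted p = 0.00115), a 2.45-fold increase with a 95% interval of 1.82 to 3.30. All 11 other fits called it, with differences of 1.19 to 1.48 and adjusted p from 2.4e-07 to 0.0139. B230398E01Rik, on the opposite strand, covers 26.8% of the Rfx5 exonic length with exons of its own. It had 18, 23 and 32 counts in scrambled control and 48, 34 and 55 in IFNγR1KO libraries and rose by 1.37 (95% interval 0.75 to 1.99, edgeR adjusted p = 0.00679). The strand setting of the counting is not given in the sources used here. Reads over the shared bases may therefore have been left out or counted for the other gene, and the counts of these genes may not be separate.

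Rfxap (ENSMUSG00000036615.6, chromosome 3 from 54803115 to 54807791, minus strand) and Rfxank (ENSMUSG00000036120.10, chromosome 8 from 70130794 to 70139154, minus strand) encode the subunits that join RFX5 in the RFX complex. Rfxap had 256, 377 and 370 counts in scrambled control and 195, 212 and 234 counts in IFNγR1KO libraries, or 33.7 ± 5.18 and 29.8 ± 2.75 CPM (SD, n = 3 each). Rfxank had 730, 776 and 568 counts in scrambled control and 573, 565 and 420 counts in IFNγR1KO libraries, or 70.4 ± 13.5 and 72.3 ± 11.8 CPM. The groups overlapped for both genes. The difference was -0.18 for Rfxap (95% interval -0.52 to 0.16, edgeR adjusted p = 0.506) and 0.04 for Rfxank (95% interval -0.34 to 0.41, edgeR adjusted p = 0.914). Exons of Nr2c2ap on the opposite strand overlap 33.8% of the exonic bases of Rfxank, and Nr2c2ap differed by 0.08 (edgeR adjusted p = 0.791).

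The counts of Rfx5 per count of Rfxap were 0.211, 0.149 and 0.224 in scrambled control and 0.631, 0.509 and 0.479 in IFNγR1KO libraries. Those of Rfx5 per count of Rfxank were 0.0740, 0.0722 and 0.146 in scrambled control and 0.215, 0.191 and 0.267 in IFNγR1KO libraries. Within each library, then, the ratio of Rfx5 to either partner was higher in every IFNγR1KO culture, and neither range overlapped (exact permutation p = 0.1 for each, adjusted p = 0.133 over the 4 ratios, with 0.1 the smallest possible p).

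Levels of different genes were compared as CPM per kb of exonic length. In scrambled control cells the order from the top was Rfxank (17.8 CPM per kb), Rfxap (15.02), H2-DMb1 (7.36), H2-DMa (2.99), Cd74 (2.05), Rfx5 (1.18), H2-Eb1 (0.826), H2-Ab1 (0.737), H2-Aa (0.660) and Ciita (0.0661). The median of the 11125 protein-coding genes tested was 6.72 CPM per kb. The libraries of Rfxank and Rfxap overlapped, as did those of Rfx5 with H2-Eb1 and those of H2-Eb1 with both H2-Ab1 and H2-Aa. In IFNγR1KO cells Rfxank, Rfxap and H2-DMb1 again led, at 18.2, 13.3 and 6.51 CPM per kb. Rfx5 stood at 2.90 CPM per kb, above Cd74 at 1.24 and below H2-DMa at 3.44, and the chain genes were at 0.109 (H2-Ab1), 0.0723 (H2-Eb1) and 0.0371 (H2-Aa). Libraries overlapped there for H2-DMa and Rfx5 and among the 3 chain genes and Ciita.

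H2-Aa, H2-Ab1, H2-Eb1, H2-DMa and H2-DMb1 lie in the class II region of the major histocompatibility complex, and their neighbours were read alongside. The span of chromosome 17 from 34092340 to 34344645, which was chosen after values had been seen, held 22 genes, of which 12 were tested. Of these 12, 4 were called lower in IFNγR1KO cells and 0 higher, beside 7.62% and 7.73% of all genes tested. H2-Aa, H2-Ab1 and Psmb8 were among the 4 and passed the filter only through the scrambled control libraries, so the count is a description. Of the 12, 8 were other genes than the class II members. Of those 8, Psmb8, a subunit of the immunoproteasome, fell by 2.66 (95% interval -3.37 to -1.95, edgeR adjusted p = 0.000289), from 176 to 20 counts summed over the libraries of each group. Gm20496, annotated as antisense and overlapping the spans of Psmb8 and Tap2, fell by 1.37 (edgeR adjusted p = 0.0061). The strand setting of the counting is not given, so reads of Gm20496 may not be separate from those of Psmb8 or Tap2. Tap1 and Tap2, whose products carry peptides into the endoplasmic reticulum for class I, did not pass the test, at 0.03 (adjusted p = 0.950) and -0.14 (adjusted p = 0.734), nor did Psmb9 at -0.98 (adjusted p = 0.0617). Other class II genes gave no value: H2-DMb2, H2-Ob and H2-Ea-ps had 0 counts in every library, H2-Oa had at most 1 count in a library and H2-Eb2 had 1 count in all.

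**Figure D4:**
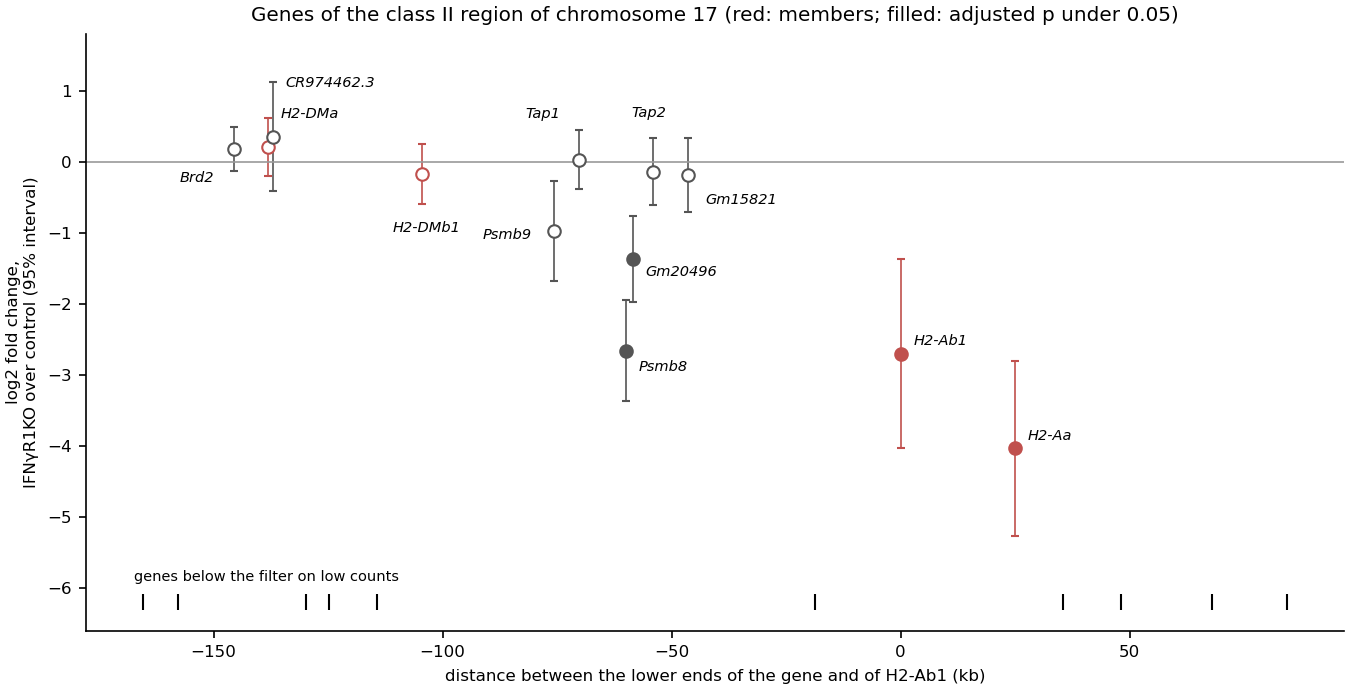
Log2 fold change, with 95% interval, of the genes tested in the class II region of chromosome 17 against their distance from H2-Ab1 in kb. H2-Aa, H2-Ab1, Psmb8 and Gm20496 lie below 0 past the test, Psmb9 lies at -0.98 without passing it, and the intervals of H2-DMa, H2-DMb1, Tap1, Tap2 and Brd2 include 0.

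Genes that act on class II transcription were described by list. Of 10 genes listed as the Ciita inducers, 9 were tested and 1 was called. The list ran from the IFN-γ receptor to IRF1 and also held Irf2, Usf1, Usf2 and Nlrc5. Of these, Nlrc5 did not pass the filter and is not itself an inducer of Ciita. Irf1, a transcription factor that drives Ciita, had 255, 286 and 289 counts in scrambled control and 116, 138 and 148 counts in IFNγR1KO libraries and fell by 0.59 (SE 0.15, edgeR adjusted p = 0.0203). This call was lost without scrambled control replicate 2 (adjusted p = 0.0667), IFNγR1KO replicate 10 (0.109) or IFNγR1KO replicate 11 (0.0940). The median of the 9, which included the targeted gene Ifngr1, was -0.24, beside -0.00 over all genes tested, and 6 lay below 0. The 7 tested silencers of class II genes, described below, had the same median of -0.24.

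The 12 promoter partners, the NF-Y, CREB and co-activator genes that act with RFX and CIITA, were all tested and edgeR called 0. Of these, 2 had an unadjusted p under 0.05 and DESeq2 called 1, Smarca4, the ATPase of the BAF remodelling complex (edgeR difference -0.59, adjusted p = 0.0691). Of 9 listed silencers of class II genes 7 were tested, 6 of them with values below 0. Dnmt1, the maintenance DNA methyltransferase, had 1927, 2324 and 3302 counts in scrambled control and 619, 803 and 1144 counts in IFNγR1KO libraries and fell by 1.09 (SE 0.22, edgeR adjusted p = 0.00604), while the other 6 were not called.

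Of 14 listed genes of endosomal processing and class II trafficking 11 were tested, and edgeR called 2 higher and 1 lower. DESeq2 called 4, the added gene being Ctsd, cathepsin D, which was lower (edgeR difference -0.41, adjusted p = 0.0775). Ifi30, the thiol reductase of the endosome, had 638, 889 and 744 counts in scrambled control and 235, 292 and 295 counts in IFNγR1KO libraries and fell by 1.00 (SE 0.15, edgeR adjusted p = 0.00101). Ctsl, cathepsin L, which trims the invariant chain, had 1449, 1856 and 1541 counts in scrambled control and 2025, 2007 and 1715 counts in IFNγR1KO libraries and rose by 0.71 (SE 0.14, edgeR adjusted p = 0.00603). Cd82, a tetraspanin of the class II compartment, rose by 0.60 (SE 0.14, edgeR adjusted p = 0.0114), and without IFNγR1KO replicate 10 its adjusted p was 0.0615. Ctss, cathepsin S, had 1, 0 and 1 counts in scrambled control and 0 counts in every IFNγR1KO library. The median of the 11 was -0.05. Each list's calls were read beside 7.73% of all tested genes called higher and 7.62% called lower.

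**Figure D5:**
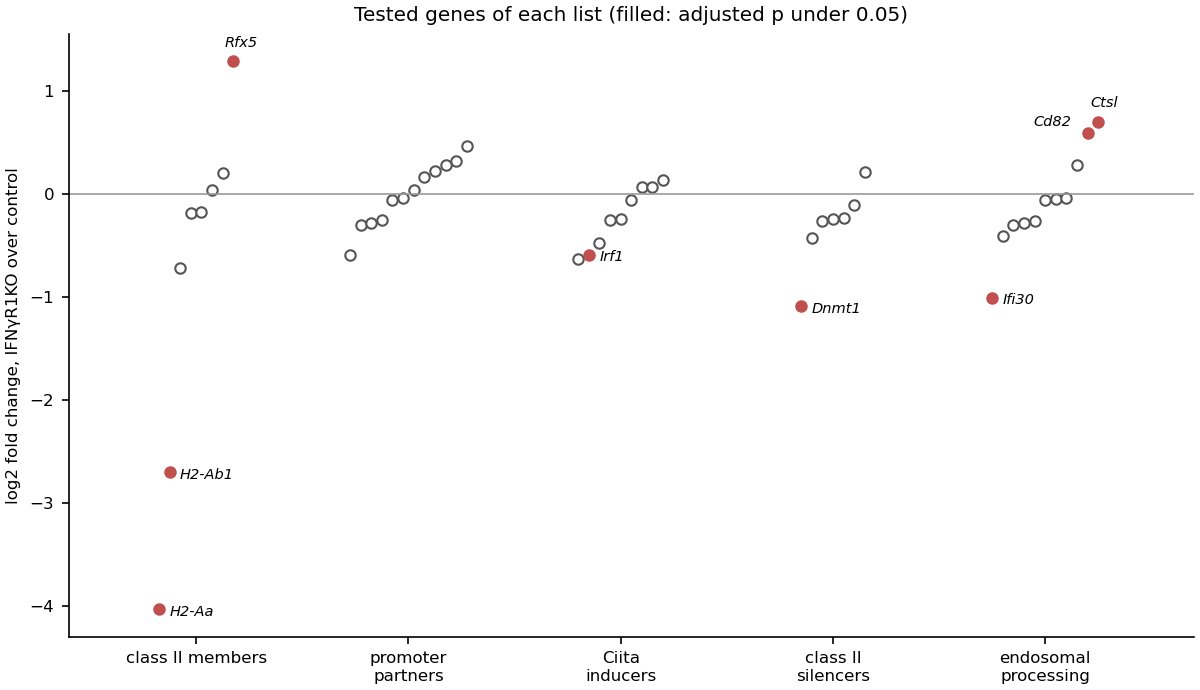
Log2 fold change of IFNγR1KO over scrambled control for the tested genes of each list, with filled points for an adjusted p under 0.05. The class II genes hold the lowest values, H2-Aa at -4.03 and H2-Ab1 at -2.70, and Rfx5 at 1.29 is the highest value in any of the lists.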

How the data were processed

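Poly(A) RNA was sequenced from both ends. Per the submitters' processing notes and the methods, STAR 2.7.5a (GRCm38) and htseq-count (HTSeq 0.11.2) were used, and the authors deposited unfiltered, unnormalized counts for each gene in 1 table for each of 6 libraries. The annotation release and strand setting are not given in the sources used here. Between 46.0% and 47.0% of the read pairs in each table fell on genes and 46.9% to 47.7% on no feature, and rows that name no gene were left out.

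Symbols, positions and exonic overlaps were taken from GENCODE M21, which holds 55154 of the 55335 identifiers. Counts were analysed in R 4.3.3 with edgeR 4.0.16: filterByExpr (minimum count 10, minimum total 15), TMM scaling and quasi-likelihood tests, with p-values adjusted by Benjamini-Hochberg over the 13642 genes tested. A gene was called at an adjusted p under 0.05. CPM used TMM-scaled library sizes. Genes below the filter were described by their counts, an exact conditional interval of the ratio of rates and a two-sided exact permutation test. A gene with 1 to 3 counts in a group was given this ratio and not a bound. Intervals cover counting error only. DESeq2 1.42.0, other scalings and filters, thinning and leaving out each library were the alternatives. Promoter windows came from RefSeq (GRCm38.p6).

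All 10 genes, the other class II genes, Ifngr1 and up to 3 called genes per list and direction were named. Members and lists were chosen with earlier results of these data known. Genes outside this rule (Smarca4, Sin3a, Ctsd, Ctss, the named cell markers and the neighbours on chromosome 17) were named after their values were seen. Brd2, Dexi, B230398E01Rik and Nr2c2ap were named because their exons overlap those of members on the opposite strand. Irf2, Usf1, Usf2 and Nlrc5 were named to describe their list.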

Additional observations from a re-analysis of the deposited data

How the results depend on the processing

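H2-Aa and Rfx5 were called under all 11 alternative fits and H2-Ab1 under 9. For H2-Aa and H2-Ab1, which reached the filter only through the scrambled control libraries, these calls are a description. The number of the 10 genes called was 2 to 4 when a library was left out. The number of all genes called, 2093, was 710 with an added log2 fold change beyond 1 and 1028 to 2824 without 1 library, the low values being 1087 without scrambled control replicate 2, 1095 without IFNγR1KO replicate 10 and 1028 without IFNγR1KO replicate 11. The share of higher calls was 62.4% with that fold change limit. Promoter partners called went from 0 to 1 with DESeq2 and with no filter, and from 0 to 1 without 1 library (1, Smarca4, without IFNγR1KO replicate 12). Calls among the Ciita inducers went from 1 to 0 with the fold change limit and 0 to 1 without 1 library, those among the silencers from 1 to 2 without 1 library (2, with Sin3a, without IFNγR1KO replicate 12) and those among endosomal genes from 3 to 1 with the fold change limit. The difference of Rfxank ranged from -0.11 to 0.16 without 1 library and changed sign, to -0.11 without scrambled control replicate 3 and -0.06 without IFNγR1KO replicate 10. The cause was not tested. No paired analysis was possible because the replicate numbers 1 to 3 and 10 to 12 are not shared. Levels under 1 CPM rested on about 10 counts or fewer in a library, which limits what can be read for Ciita and for the chain genes in IFNγR1KO cells.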
